A study of Mus musculus with 2 samples.

Results

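The cells described here were stromal cells of mouse epididymal fat with transcripts of Pi16, which encodes a secreted peptidase inhibitor, or of Dpp4, which encodes the surface dipeptidyl peptidase also known as CD26. A barcode was counted among them when it had 500 or more detected genes and no more than 20% mitochondrial UMIs (unique molecular identifiers, each standing for 1 captured transcript). At least 1.5% of its UMIs had to come from the 9 fibroblast genes Dcn, Col1a1, Col1a2, Col3a1, Lum, Clec3b, Serpinf1, Dpt and Mfap5, and less than 0.3% from the macrophage genes C1qa, C1qb and C1qc. Pi16 and Dpp4 together had to give at least 0.1% of its UMIs and at least 2 UMIs. This chose 1428 of the 14205 barcodes, 674 of 7365 in the library from mice on chow and 754 of 6840 in that from mice on a high fat diet. They are called Pi16 Dpp4 progenitors below, and the 3029 stromal cells of the same gate with 0 UMIs of both genes are called negatives. Another 1731 stromal cells lay between.

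The cells were the stromal vascular fraction, which is what remains of digested fat once the adipocytes are removed. The donors were male C57BL/6J wild-type mice aged 18 weeks, without any transgene. They had eaten normal chow (NCD) or a high fat diet (HFD), the latter for 12 weeks per the series design. Each diet has 1 droplet-based 3' library, the number of mice behind it is not given in the sources used here, and diet and library cannot be told apart. There are therefore no replicates and no tests across animals. All intervals are 95% counting intervals, which cover counting error only and treat UMIs as independent. A difference between the diets is a difference between these libraries.

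In white fat, stromal cells with Pi16 and Dpp4 are known from the fibrous interstitium that surrounds the lobules and larger vessels. They are regarded as an early mesenchymal progenitor that can give rise to committed preadipocytes, which are marked by Col15a1, Icam1 and Pparg, and to cells marked by F3 and Gdf10. Committed preadipocytes start to make the proteins of lipid uptake and storage, whereas the interstitial cells make Wnt and BMP pathway proteins and a fibronectin- and fibrillin-rich matrix.

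The HFD library was shallower and held more transcripts of other cell types. The median NCD progenitor had 4910 UMIs and 1902.5 genes, and the median HFD progenitor 1932 UMIs and 947 genes. Negatives were of like depth within each library, with medians of 4517.5 and 1892 UMIs. The summed level of 13 macrophage markers in the progenitors was 335 CPM (counts scaled to a total of 1000000 UMIs) with chow and 2456 CPM with the high fat diet. It was 378 and 2534 CPM in the negatives and 26393 and 23272 CPM in macrophage-gated cells, and none of the 13 markers was at 0 in any of these sums. As a share of the level in the whole library, the median over these markers put free RNA at 3.03% and 20.1% in the progenitors. Free RNA means transcripts in a droplet that its own cell did not make. The gate limits C1q UMIs, which may lower this value. The summed markers of endothelial cells were at 31.7 and 95.8 CPM, of T and NK cells at 12.6 and 69.4 CPM, of B cells at 4.79 and 38.9 CPM, of mesothelial cells at 1.20 and 22.1 CPM, of mural cells at 5.99 and 15.8 CPM and of adipocytes at 4.19 and 7.89 CPM. In the NCD progenitors Upk1b, Krt7, Krt8, Krt18, Myh11, Cd3g and Plin1 were at 0, and in the HFD progenitors Krt8, Plin1 and Lep were. Taken the same way, endothelial markers gave 14.5% and 47.1%, T and NK markers 4.27% and 38.3% and B cell markers 13.1% and 24.4%. Mesothelial markers gave 0.728% and 94.0%, mural markers 11.2% and 84.7% and adipocyte markers 29.7% and 108%. These rest on lower summed levels, and the subtraction used the macrophage value alone. The part of other cells' transcripts in the results below was not tested beyond the subtraction given beside them. The libraries shared 64 barcode sequences, 2 of them among the progenitors.

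Pi16 Dpp4 progenitors made up 20.9% of the gated stromal cells in the NCD library (674 of 3223, 19.5 to 22.4) and 25.4% in the HFD library (754 of 2965, 23.9 to 27.0). Of all barcodes that passed the cell filter they were 9.18% and 11.1%. The share depends on how many UMIs a cell has, so it was also taken within 4 classes of depth. It was 20.2% and 27.5% below 2000 UMIs, 19.7% and 22.8% from 2000 to 3000, 18.7% and 20.5% from 3000 to 5000, and 23.3% and 31.9% from 5000 up. The HFD value was the higher in each class, and the intervals of the libraries overlapped in all 4. The barcodes with 2000 or more UMIs, 6742 NCD and 3506 HFD, were also thinned to 2000 UMIs before the rule was applied. The shares were then 24.6% (23.0 to 26.1) of 3033 and 30.6% (28.3 to 33.1) of 1443 stromal cells. Shallower barcodes were left out, so these are not shares of all gated stromal cells. Macrophage-gated cells, which should lack Pi16, passed the same threshold in 11 of 2375 NCD cells (0.463%) and in 92 of 2049 HFD cells (4.49%). A Pi16 UMI was found in 6.27% and 26.3% of them, at median depths of 3827 and 2113 UMIs. The higher HFD share therefore stood beside a higher background in the HFD library. At a stricter threshold of 0.2% and 3 UMIs the HFD share was no longer the higher, with 381 of 3223 NCD (11.8%) and 316 of 2965 HFD stromal cells (10.7%). Among cells without a UMI of the 13 macrophage markers the shares were 18.8% (176 of 936) and 19.6% (44 of 224). Other settings kept the HFD share the higher. With the stromal gate at 3%, 262 of 1814 NCD and 365 of 1425 HFD stromal cells were progenitors, a wider gap in share. With no C1q UMI allowed they were 388 of 1941 and 244 of 997.

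**Figure D1:**
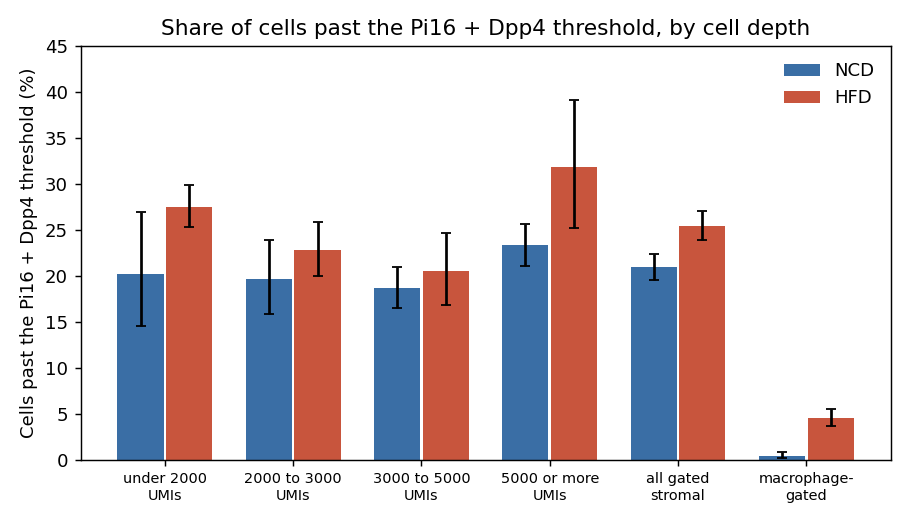
Share of cells past the Pi16 and Dpp4 threshold (%, vertical axis) by UMIs per cell, in all gated stromal cells and in macrophage-gated cells; bars are the NCD (blue) and HFD (red) library and whiskers are exact 95% binomial intervals. HFD bars are higher in every depth class, and the macrophage-gated cells reach 0.463% and 4.49%.

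The members were chosen by their Pi16 and Dpp4 UMIs, and Pi16 did nearly all of the choosing. Their Pi16 level was 2840.5 CPM with chow and 2728 CPM with the high fat diet, and their Dpp4 level was 164 and 76.8 CPM. In the NCD library 672 of 674 members had a Pi16 UMI and 341 (50.6%) had a Dpp4 UMI, and in the HFD library 754 of 754 and 111 (14.7%) did. Dpp4 without Pi16 was found in 2 NCD members and 0 HFD members. After thinning to 2000 UMIs, for which 35 NCD and 415 HFD members were too shallow, Dpp4 was seen in 24.7% (21.4 to 28.3) and 12.98% (9.59 to 17.0). In macrophage-gated cells thinned the same way it was seen in 0.373% and 1.32%. The median member had 11 and 4 UMIs of both genes, or 0.224% and 0.181% of its UMIs, and the highest reached 1.84% and 1.89%. Members nearest the threshold lay at 0.10023% and 0.10005%, and the nearest cells outside it at 0.0995% and 0.0999%.

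Of the other markers given for these cells, Anxa3 went with the name and Pdgfra did not. Anxa3, which encodes a membrane-binding annexin, was at 982 CPM in NCD progenitors against 160 CPM in NCD negatives, and at 304 against 85.4 CPM in the HFD library. Pdgfra, the receptor that marks fat progenitors in general, was at 157 CPM in NCD progenitors and 293 CPM in NCD negatives, and at 199 and 214 CPM in the HFD library. Markers of the neighbouring stromal populations were lower in the progenitors. Col15a1, a basement membrane collagen of committed preadipocytes, was at 75.7 against 409 CPM with chow and 237 against 366 CPM with the high fat diet. F3, the tissue factor gene, was at 80.2 against 363 CPM and at 134 against 278 CPM, and the BMP family gene Gdf10 was at 61.4 against 269 CPM and at 47.9 against 78.9 CPM. At the threshold used for membership (0.1% and 2 UMIs), 1.19% of NCD and 5.31% of HFD progenitors were also past it for Col15a1, compared with 9.42% and 10.1% of negatives. For F3 or Gdf10 these shares were 3.71% and 4.24% of progenitors and 20.8% and 10.7% of negatives.

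Against the negatives of their own library, one set of genes was higher in the progenitors with both diets. This contrast is the one that chose the cells, so its values are a description and carry no test. At 2-fold or more, 426 of 8073 genes (5.28%) were higher and 487 (6.03%) lower in NCD progenitors, and 221 of 7787 (2.84%) higher and 170 (2.18%) lower in HFD progenitors. In both libraries together 136 of 7322 genes (1.86%) were higher and 82 (1.12%) lower. Of the 334 genes that were 2-fold higher in the NCD library and measured in both, 315 were also higher in the HFD library, 136 of them (40.7%) by 2-fold. The same 136 were 67.0% of the 203 genes that were 2-fold higher in the HFD library. The median log2 ratio of those 334 genes was 1.54 with chow and 0.86 with the high fat diet.

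**Figure D2:**
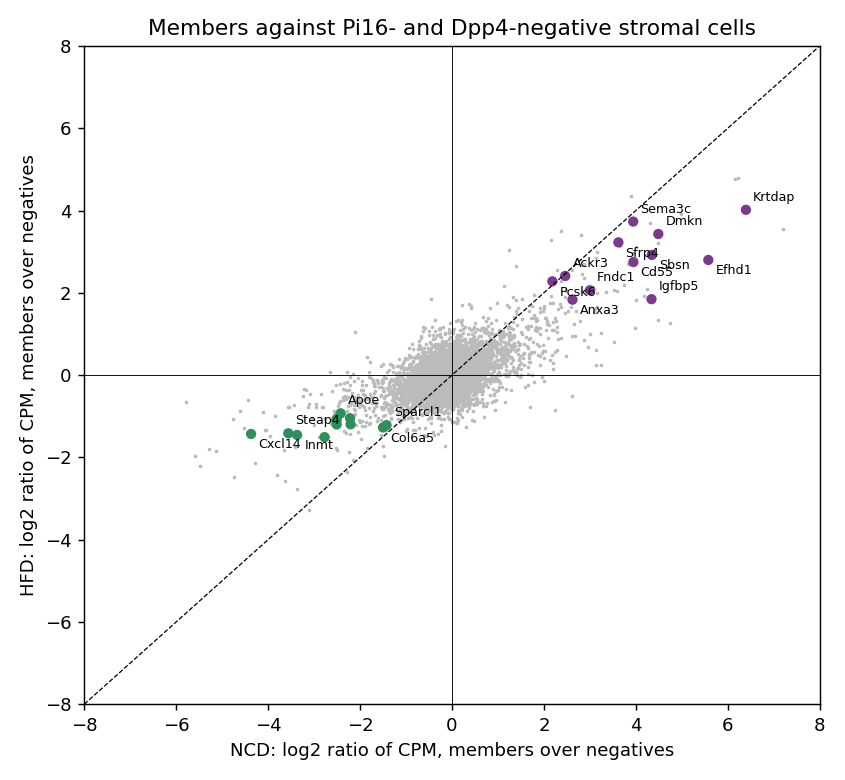
Each point is a gene placed by its log2 ratio of CPM in Pi16 Dpp4 progenitors over negatives, in the NCD library (horizontal axis) and in the HFD library (vertical axis); purple and green points are the genes named as higher and as lower in both, 6 of the lower ones without a label, and the dashed line marks equal ratios. Most named genes lie nearer to 0 on the HFD axis, as Efhd1 does at 5.58 and 2.80.

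Sema3c, a secreted semaphorin guidance cue, was at 432 CPM in progenitors and 28.1 CPM in negatives of the NCD library, 15.4-fold higher (13.3 to 17.8). With the high fat diet it was at 232 and 17.5 CPM, 13.3-fold higher (10.00 to 18.0). Sfrp4, a secreted Wnt antagonist, was at 369 and 30.0 CPM with chow and at 390.4 and 41.7 CPM with the high fat diet, 12.3-fold (10.7 to 14.2) and 9.36-fold (7.75 to 11.4) higher. For these 2 genes the intervals of the libraries overlapped. The scavenging receptor of CXCL12, Ackr3, was 5.52-fold (4.92 to 6.19) and 5.31-fold higher (4.06 to 7.04), and the proprotein convertase gene Pcsk6 was 4.54-fold and 4.85-fold higher. Others had a smaller ratio in the HFD library. Cd55, which protects cells from complement, had 898 and 58.2 CPM with chow and 441 and 65.7 CPM with the high fat diet, 15.4-fold (14.0 to 17.1) and 6.71-fold (5.75 to 7.87). Efhd1, a mitochondrial calcium-binding protein gene, was 47.7-fold (36.02 to 64.5) and 6.96-fold (5.15 to 9.54) higher. Igfbp5, which binds insulin-like growth factors, was 20.3-fold and 3.59-fold higher, and Fndc1, a fibronectin-domain protein gene, 8.002-fold and 4.17-fold. The progenitors stood apart from negatives in both libraries for each of these genes, and their levels in HFD macrophage-gated cells lay between 3.95 CPM for Pcsk6 and 26.4 CPM for Cd55.

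Another 3 of the genes named as higher, Sbsn, Dmkn and Krtdap, are neighbours on chromosome 7. They encode suprabasin, dermokine and a keratinocyte differentiation-associated protein, secreted products best known from stratified epithelium. In GENCODE vM21 on GRCm38 they lie on the forward strand at 30751471 to 30756134, 30763756 to 30781063 and 30787896 to 30791097, a span of 39627 bp with gaps of 7621 and 6832 bp. Sbsn was at 623 CPM in NCD progenitors and 30.6 CPM in NCD negatives, and at 272 and 35.9 CPM in the HFD library. Dmkn was at 154 and 6.87 CPM and at 185 and 17.1 CPM. Krtdap was at 160.4 and 1.91 CPM and at 126 and 7.76 CPM, 84.1-fold (50.5 to 151) and 16.2-fold (10.6 to 25.8) higher. All 3 genes were thus higher in progenitors than in negatives with both diets. A UMI of any of them was seen in 66.0% of NCD progenitors, 11.7% of NCD negatives and 2.86% of NCD macrophage-gated cells, and in 44.3%, 11.2% and 7.91% of these cells in the HFD library. All 3 were seen together in 10.98% of NCD progenitors and 0.118% of negatives, and in 4.51% and 0.0746% in the HFD library. Of 15 other genes of the table within 100000 bp of the cluster, 14 stayed under 10 CPM in all 4 sums. The exception was Tmem147, a gene for a membrane protein of the endoplasmic reticulum, at 123 and 119 CPM in NCD and at 113 and 104 CPM in HFD progenitors and negatives. A non-coding transcript of the same strand that overlaps Sbsn in the annotation was not counted apart from it here.

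The 250 bases before each start of these 3 genes, shown because the genes were high together, come from RefSeq on GRCm38.p6 at chr7:30751221-30751470, chr7:30763506-30763755 and chr7:30787655-30787904, all on the forward strand. Capitals mark TGANTCA and TATAAA, the letters of a TATA box. TGANTCA takes in TGAGTCA and TGACTCA, the letters that the AP-1 factors Fos and Jun are known to bind, and also other centre bases: Dmkn and Krtdap hold TGAGTCA, and Sbsn holds TGAATCA, which is neither of the pair.
Sbsn: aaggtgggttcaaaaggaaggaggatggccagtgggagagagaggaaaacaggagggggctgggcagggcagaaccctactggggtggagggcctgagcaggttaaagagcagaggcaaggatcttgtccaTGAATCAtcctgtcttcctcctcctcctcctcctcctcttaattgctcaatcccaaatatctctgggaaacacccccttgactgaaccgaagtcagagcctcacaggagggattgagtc
Dmkn: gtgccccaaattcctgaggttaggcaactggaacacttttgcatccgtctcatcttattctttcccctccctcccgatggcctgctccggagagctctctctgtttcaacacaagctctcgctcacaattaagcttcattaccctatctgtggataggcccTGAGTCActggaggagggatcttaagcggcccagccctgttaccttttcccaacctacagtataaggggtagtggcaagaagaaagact
Krtdap: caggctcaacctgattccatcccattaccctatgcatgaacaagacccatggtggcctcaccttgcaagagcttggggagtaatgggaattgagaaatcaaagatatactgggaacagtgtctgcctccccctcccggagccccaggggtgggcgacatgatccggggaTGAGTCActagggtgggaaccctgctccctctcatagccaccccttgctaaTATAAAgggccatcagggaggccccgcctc
Both strands were searched, and TGANTCA reads the same on either strand. Each window held 1 TGANTCA, which began 119 bases before the start of Sbsn, 89 before Dmkn and 81 before Krtdap. Of 32851 promoter windows of that length, 6.75% held these letters. Of the 3 windows, TATAAA was found only before Krtdap, 30 bases ahead of its start, and in 12.4% of all windows. Distances are to the RefSeq starts. For Krtdap that start differs from the GENCODE one, as its window ends at 30787904, past the GENCODE start at 30787896. A match is a description of the letters and not of a bound site. The GC content of the windows was 54.4%, 50.8% and 56.4%, beside a median of 52.4% over all windows.

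Genes of lipid handling, of steroid and xenobiotic metabolism and of committed preadipocytes were lower in the progenitors. Of 19 measured committed preadipocyte genes, 17 were 2-fold lower than in negatives with chow and 5 with the high fat diet, and none was 2-fold higher in either. Their median log2 ratio was −2.09 and −0.63, beside −0.08 and −0.01 over all genes. Lpl, the lipase that frees fatty acids from lipoproteins, was at 252 CPM in progenitors and 1173 CPM in negatives of the NCD library and at 887 and 1834 CPM with the high fat diet, 4.65-fold and 2.07-fold lower. Pparg, the master regulator of fat cell formation, had 1.20 against 23.3 CPM and 3.68 against 16.2 CPM. Agt, which encodes angiotensinogen, was at 3.89 against 173 CPM and at 15.8 against 72.8 CPM. These 3 genes were lower in the progenitors with both diets. The chemokine gene Cxcl12 was 5.70-fold and 2.09-fold lower, and G0s2, whose product inhibits fat breakdown, 5.71-fold and 2.16-fold.

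Of 17 genes of steroid and detoxification enzymes, 12 were 2-fold lower in NCD and 3 in HFD progenitors, with medians of −1.48 and −0.51. Inmt, a methyltransferase gene, was at 137 CPM in progenitors and 1419 CPM in negatives of the NCD library, and at 102 and 280 CPM in the HFD library. Cp, the copper-carrying ferroxidase ceruloplasmin, was at 79.3 and 542 CPM and at 37.9 and 108 CPM. The retinol-oxidising alcohol dehydrogenase gene Adh1 was 4.61-fold and 2.29-fold lower. Cxcl14, another chemokine gene, was at 9.88 against 204 CPM with chow and at 99.96 against 269 CPM with the high fat diet. Steap4, a metalloreductase gene, was at 32.9 against 388 CPM and at 62.6 against 167 CPM. The secreted glutathione peroxidase gene Gpx3 was at 681 against 3872 CPM and at 1038 against 2386 CPM. Sparcl1, a matricellular protein gene, and Col6a5, a collagen VI chain gene, had ratios of −1.42 and −1.22 and of −1.50 and −1.27 on the log2 scale. Apoe was at 218 against 1165 CPM and at 1986 against 3782 CPM, and at 13470 CPM in HFD macrophage-gated cells.

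Of 32 interstitial progenitor genes, 28 were 2-fold higher and 1 (Aldh1a3) lower than in negatives in the NCD library, and 23 of 31 higher and none lower in the HFD library. The medians were 2.29 and 1.38. The list was written with earlier results of these data known and holds genes by which such cells are recognised, so the counts describe the label and do not test it. Dact2, whose product binds Dishevelled in the Wnt pathway, was at 207 CPM in progenitors and 1.40 CPM in negatives of the NCD library, and at 53.1 and 4.53 CPM in the HFD library. The ligand gene Bmp7 was at 56.9 against 0.763 CPM and at 17.9 against 0.647 CPM, and the ligand gene Wnt2 at 20.4 against 1.27 CPM and at 37.9 against 10.7 CPM. Fn1, which encodes fibronectin, was at 2706 against 649 CPM and at 2315 against 930 CPM, and the fibrillin gene Fbn1 at 1859 against 285 CPM and at 1024 against 351 CPM.

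The genes of signalling pathways were counted by role, beside 1.86% of all genes that were 2-fold higher in both libraries. Of 6 Wnt inhibitor genes measured in both libraries, 4 were 2-fold higher in progenitors in both, namely Sfrp2, Sfrp4, Dact1 and Dact2. Sfrp2, a secreted frizzled-related protein gene, was at 282 against 17.8 CPM and at 112 against 50.1 CPM. Of 3 Wnt ligand genes 1 (Wnt2) was 2-fold higher in both, and of 7 Wnt receptor genes 0. Of TGF-beta and BMP ligand genes 2 of 7 were higher in both, Bmp7 and the activin subunit gene Inhbb (58.7 against 24.5 CPM and 16.3 against 8.09 CPM), and of the receptor genes 0 of 9. Inhibitor genes of this family gave 0 of 9 and its target genes 0 of 8, with 1 target (Id1) 2-fold lower in both. For Wnt target genes the count was 0 of 4. In the matrix lists, 2 of 14 elastic fibre genes (Fbn1 and Emilin2) and 2 of 28 collagen and crosslinking genes (Col14a1 and Pcolce2) were 2-fold higher in both. Col14a1, a fibril-associated collagen, was at 880 against 98.9 CPM with chow and at 396 against 125 CPM with the high fat diet. Of 7 hyaluronan and surface lubrication genes 2 were 2-fold higher in both, Has2 and Ugdh, a synthase and the enzyme that makes its sugar donor. Ugdh was at 852 against 271 CPM and at 704 against 322 CPM.

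Several genes of the progenitors were graded with Pi16 and Dpp4 content and also differed between bins below the threshold. The gated stromal cells were put into 6 bins by the share of their UMIs from both genes, from 0 to 0.4% or more, with 154 NCD and 116 HFD cells in the top bin. Anxa3 was at 160, 406, 619, 711, 1103 and 1299 CPM over the bins of the NCD library and at 85.4, 128, 119, 198, 278 and 687 CPM over those of the HFD library. Sema3c reached 545 and 538 CPM in the top bin, Cd55 1212 and 858 CPM, Fn1 2766 and 3252 CPM and Bmp7 90.01 and 47.8 CPM. For Sema3c the HFD library was lower in the middle bins (236 against 503 CPM at 0.2 to 0.4%) and like the NCD library in the top bin. Col15a1 had the opposite order, at 409 CPM in the lowest and 26.6 CPM in the top NCD bin, and at 366 and 111 CPM in the HFD library. Lpl went from 1173 to 223 CPM and from 1834 to 469 CPM. Pdgfra was at 293 CPM in the lowest and 104 CPM in the top bin of the NCD library and at 214 and 218 CPM in the HFD library. Bins share cells' depth and library, and cells with few UMIs reach a bin on 1 or 2 UMIs, so the order is a description.

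**Figure D3:**
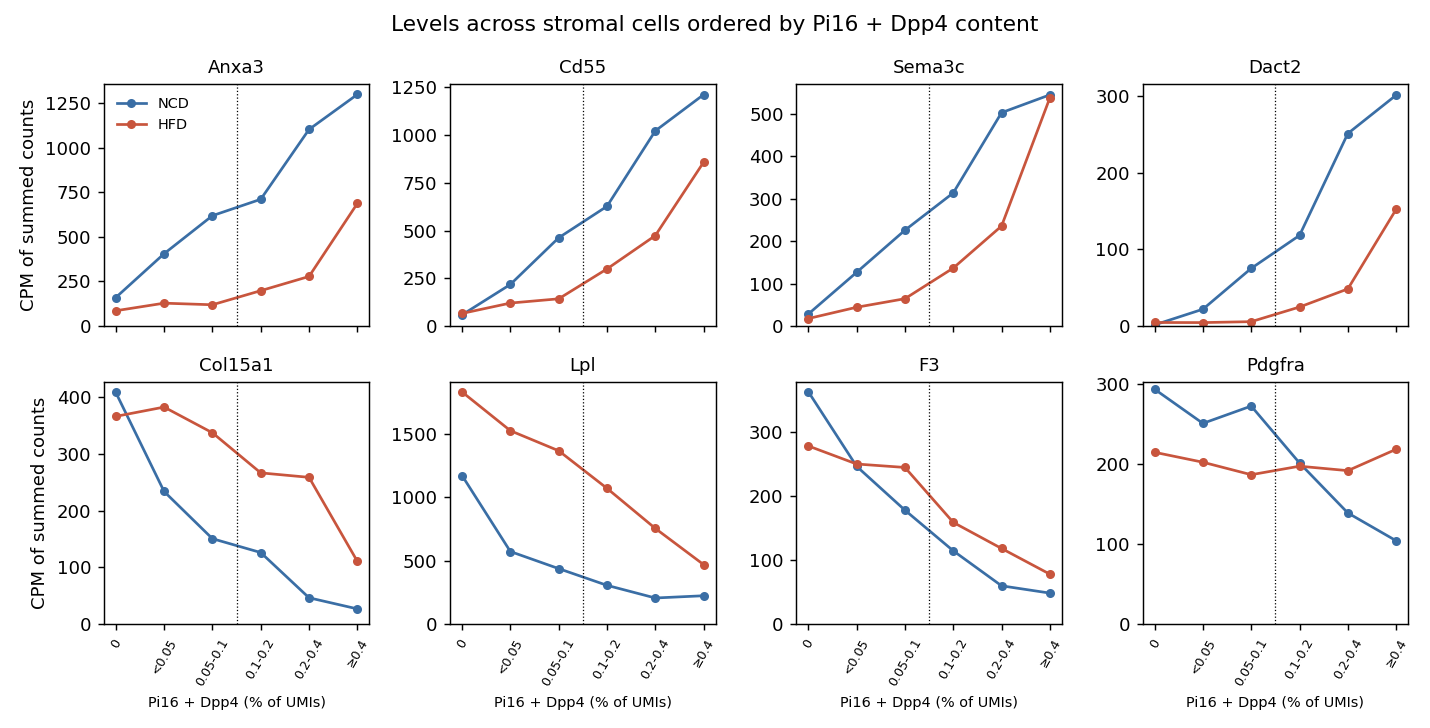
Level of 8 genes (CPM of the summed counts, vertical axes from 0) over gated stromal cells binned by the share of their UMIs from Pi16 and Dpp4 (%, horizontal axis), in the NCD (blue) and HFD (red) library; the dotted line marks the 0.1% threshold. Anxa3 reaches 1299 and 687 CPM in the top bin and Col15a1 26.6 and 111 CPM.

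Within the progenitors, those with a UMI of Dpp4, itself a gene of the rule, had higher levels of several of the same genes. In the HFD library the 111 members with Dpp4 had Igfbp5 at 436 CPM, Dmkn at 366 CPM, Sema3c at 426 CPM and Anxa3 at 483 CPM, and the 643 without it had 113, 134, 177 and 254 CPM. In the NCD library the 341 members with Dpp4 and the 333 without differed less, with Igfbp5 at 571 and 284 CPM, Dmkn at 188 and 115 CPM, Sema3c at 503 and 349.7 CPM and Anxa3 at 1119 and 824 CPM. Col15a1 was lower in members with Dpp4, at 45.2 against 111 CPM and at 189 against 251 CPM. Members with Dpp4 were also deeper, with median UMIs of 5212 against 4482 and of 2716 against 1893, and the part of depth in this split was not tested. Negatives past the Col15a1 threshold (159 NCD and 135 HFD cells) had Sema3c at 15.5 and 16.0 CPM, and those past the F3 or Gdf10 threshold (351 and 143 cells) at 19.2 and 6.19 CPM, so neither population had the level of the progenitors.

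Between the diets, the median of the interstitial progenitor genes was lower and that of the committed preadipocyte genes higher in the HFD members. Of 8013 genes, 471 (5.88%) were at least 2-fold higher and 440 (5.49%) at least 2-fold lower in HFD than in NCD progenitors. These counts depended on the setting: the lower genes were 736 when thinned to 2000 UMIs, 676 with each cell weighted equally and 920.0 with no C1q UMI allowed. Without cells that had a macrophage marker UMI, a setting added after seeing the data, 1328 were higher and 964 lower. The median over all genes was −0.16 on the log2 scale, and scaling by the median ratio, a shift of −0.15, gave 556 higher and 297 lower genes. Of the 32 interstitial progenitor genes, 16 were 2-fold lower and 0 higher, with a median of −0.96. After subtraction of free RNA the median was −0.76. In the negatives, 486 of 8130 genes (5.98%) were 2-fold higher and 520 (6.4%) lower with the high fat diet. Of the interstitial genes, which are at lower levels there, 7 of 28 were 2-fold lower and 5 higher, with a median of −0.43 beside −0.22 over all genes. Over the bins of Pi16 and Dpp4 content the list's median was −0.98 above 0, then −1.38, −1.14 and −1.10, and −0.51 at 0.4% or more, where 3 genes were 2-fold lower. The cells with the most Pi16 and Dpp4 therefore differed least between the libraries in these genes among the bins above 0.

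**Figure D4:**
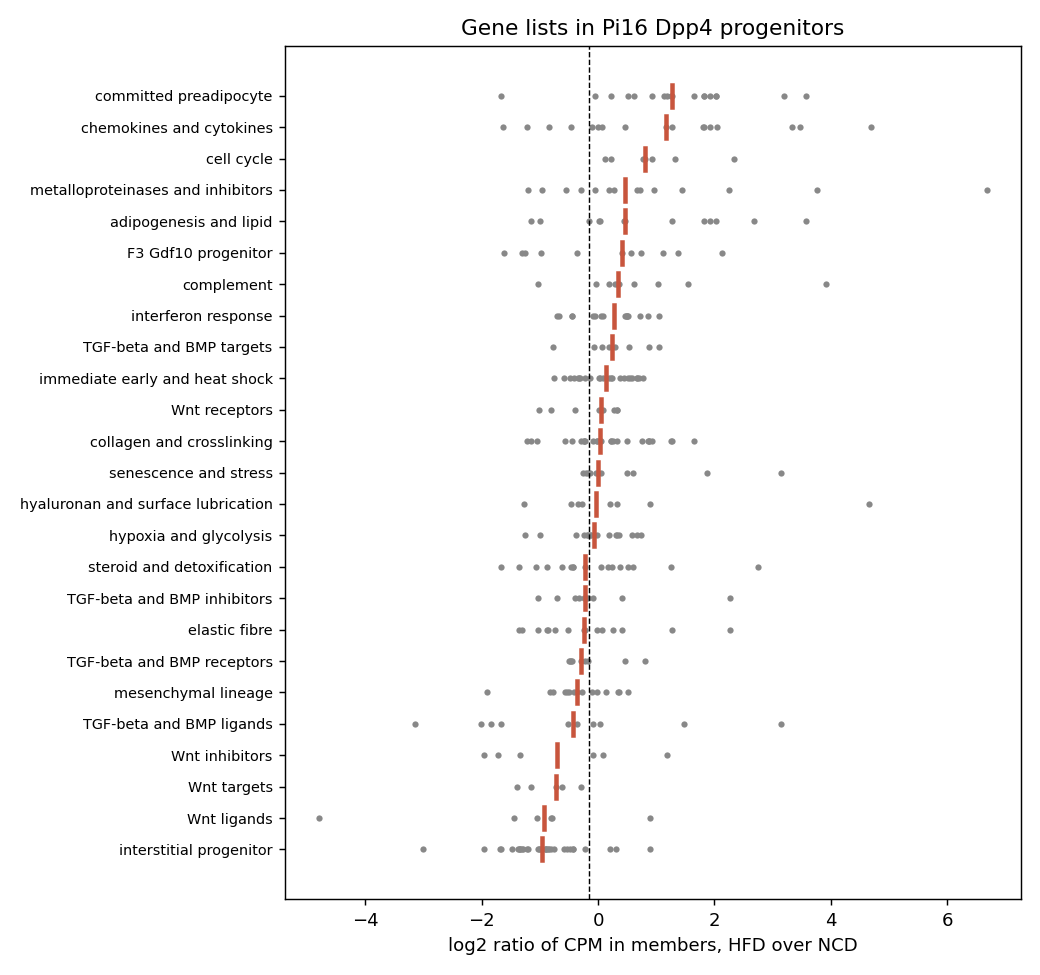
Log2 ratio of HFD over NCD level (CPM) in Pi16 Dpp4 progenitors for the genes of 25 lists; grey points are genes, red bars the list medians, and the dashed line is the median over all genes at −0.16. The interstitial progenitor list has the lowest median (−0.96) and the committed preadipocyte list the highest (1.26).

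The interstitial genes that were lower in HFD progenitors include genes of membrane lipids, Wnt signalling and the cell surface. Smpd3, a neutral sphingomyelinase gene, was at 407 CPM in progenitors with chow and 50.5 CPM with the high fat diet, 8.05-fold lower (6.54 to 10.01), and negatives had 186 and 11.3 CPM. Dact2 went from 207 to 53.1 CPM and its relative Dact1 from 274 to 83.7 CPM, 3.89-fold (3.15 to 4.84) and 3.28-fold (2.77 to 3.90) lower. Anxa3 was 3.23-fold lower (2.95 to 3.53), and Cd55 and Bmp7 had log2 ratios of HFD over NCD of −1.03 and −1.67. Thinned to 2000 UMIs, Anxa3 was seen in 75.4% of NCD progenitors (71.9 to 78.7) and 42.5% of HFD progenitors (37.2 to 47.9), and in 20.8% and 26.1% of macrophage-gated cells. Unthinned these shares were 89.9% and 38.1% in the progenitors. Other members of the list differed less, with log2 ratios of −0.23 for Fn1, −0.58 for Igfbp6 and −0.44 for Cd248. The ratio was above 0 for Wnt2, the endothelial and fibroblast surface gene Ly6c1 and the hyaluronan synthase gene Has1, at 0.90, 0.30 and 0.20. Pi16 itself was at −0.06, a level that the threshold holds in both libraries.

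Mrgprg, which encodes a receptor of the Mas-related family, was seen in the progenitors with chow and not in those with the high fat diet. NCD progenitors had 496 UMIs (148 CPM), in 13.9% of cells, and HFD progenitors had 0 UMIs in 754 cells, which by a floor of 3 counts allows a share of up to 0.398% of cells with a UMI. Against a floor of 3 counts over the HFD group the level was at least 94.1-fold lower. Negatives had 0.509 and 0.323 CPM and macrophage-gated cells 2.76 and 0.158 CPM, so in the NCD library the transcript was found mainly in the progenitors among these groups. The gene lies on chromosome 7 from 143763710 to 143766993. Among other genes that were lower, the matricellular gene Nov was at 185 and 33.7 CPM, 5.48-fold lower (4.23 to 7.21), and the sulfotransferase gene Chst1 at 119 and 25.8 CPM. Ptgs1, which encodes cyclooxygenase-1, was at 124 and 32.6 CPM, and Ildr2, a tight-junction-associated receptor gene, at 119 and 32.1 CPM. The chemokine gene Ccl7 was at 502 and 161 CPM, the opioid precursor gene Penk at 638 and 210 CPM and the phosphatase inhibitor gene Ppp1r14b at 584 and 194 CPM. Ccl7 and Penk were lower in HFD negatives too, at 719 against 214 CPM and at 1343 against 337 CPM.

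Of 18 committed preadipocyte genes measured in the progenitors, 12 were 2-fold higher and 1 (Hsd11b1) 2-fold lower in the HFD library, with a median of 1.26 and of 1.19 after subtraction. In negatives 3 of 19 were 2-fold higher and 3 lower, with a median of 0.01. Fabp4, the fatty acid-binding protein gene of fat cells, was at 175 CPM in the chow progenitors and 660.3 CPM in the high fat diet progenitors, and at 844 and 962 CPM in negatives. Col15a1 was at 75.7 and 237 CPM in progenitors and at 409 and 366 CPM in negatives. Cxcl12 was at 63.4 and 225 CPM in progenitors and at 361 and 469.7 CPM in negatives. The progenitors of the HFD library were in these genes nearer to the negatives than those of the NCD library. Macrophage-gated cells passed the membership threshold in 0.463% of NCD and 4.49% of HFD cells. The part of cells past it on background Pi16, in this difference and in that of the interstitial genes, was not tested. Macrophage-gated cells had low Col15a1 and Cxcl12 (48.6 and 66.4 CPM in the HFD library) and high Cd36, Plin2 and Apoe (1581, 1567 and 13470 CPM), and after subtraction of free RNA Col15a1 stood at 1.77, Cxcl12 at 1.92, Cd36 at 3.81, Plin2 at 1.04 and Apoe at 2.96. At a given Pi16 and Dpp4 content the list was also higher in the HFD library, with medians of 1.12, 1.39 and 1.07 in the 3 bins past the threshold. The library profile that was subtracted includes the transcripts of preadipocytes, and their part in this difference was not tested further. Hsd11b1, which reactivates glucocorticoids, was at 161 and 50.5 CPM.

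Most of the genes named as higher in HFD progenitors were at a like or higher level in HFD macrophage-gated cells. Tpsb2 and Cma1, the mast cell tryptase and chymase genes, had 0 and 1 UMIs in NCD progenitors and 108 and 163 CPM in HFD progenitors. They stood at 155 and 190.2 CPM in HFD negatives and at 121 and 166 CPM in HFD macrophage-gated cells, so that all 3 groups had them at like levels. The ratio was at least 120.1-fold for Tpsb2 and 543-fold for Cma1 (96.8 to 21524). Ctss, the lysosomal cathepsin S gene, was at 8.38 and 180.5 CPM, Cd52 at 20.9 and 259 CPM, Tmem176b at 11.4 and 141 CPM and the chemokine gene Cxcl2 at 29.6 and 329 CPM. Macrophage-gated cells of the HFD library had 1661, 1056, 396 and 3102 CPM of these genes. Other genes were higher in HFD progenitors than in HFD macrophage-gated cells. Timp1, the metalloproteinase inhibitor gene, had 53.6 CPM with chow and 728 CPM with the high fat diet, 13.6-fold higher (11.6 to 16.0), and macrophage-gated cells had 113 CPM. Mmp3, the stromelysin gene, was at 1.80 and 185 CPM, and the complement gene C4b at 14.96 and 226 CPM. Abhd2, a lipid hydrolase gene, was at 35.02 and 417 CPM.

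Timp1, Abhd2, Mmp3 and C4b were higher in HFD negatives as well and are not particular to the progenitors. HFD negatives had Timp1 at 691 CPM, Abhd2 at 412 CPM, Mmp3 at 317 CPM and C4b at 418 CPM. Past the threshold of 0.1% and 2 UMIs for Mmp3 were 0 of 674 NCD progenitors, which by a floor of 3 counts allows up to 0.445%, and 7.03% of HFD progenitors, beside 0.711% and 9.62% of negatives. Those negatives past the Col15a1 threshold had Mmp3 at 469 CPM and Timp1 at 1089 CPM in the HFD library, and members with Dpp4 had 112 and 866 CPM.

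**Figure D5:**
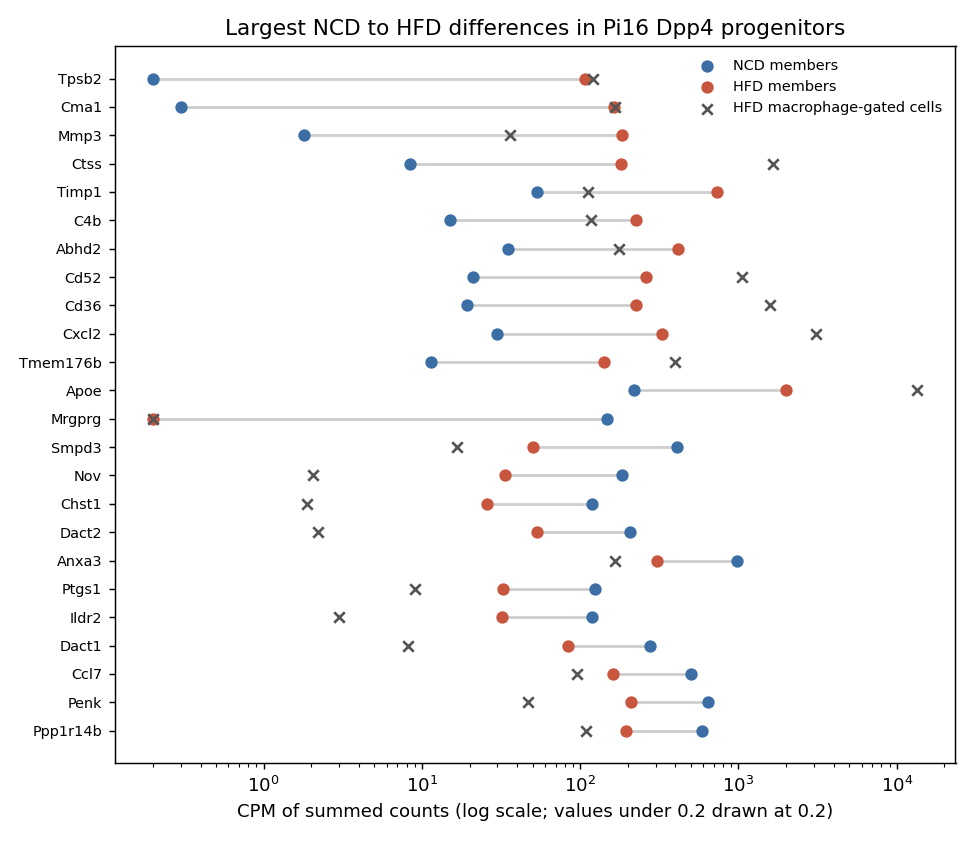
Level (CPM of summed counts, log axis) of the 24 genes named for the diet comparison in NCD (blue) and HFD (red) progenitors, with crosses for HFD macrophage-gated cells; values under 0.2 are drawn at 0.2. Timp1, Abhd2, Mmp3 and C4b stand above the crosses in HFD progenitors, while Ctss, Cd52, Cd36, Cxcl2, Tmem176b and Apoe stand below them.

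Lists of secreted signals and matrix differed less evenly between the diets. Of 17 chemokine and cytokine genes in the progenitors, 9 were 2-fold higher and 2 (Ccl2 and Ccl7) lower in the HFD library, with a median of 1.16 and of 0.88 after subtraction. Il6 was at 48.8 and 109 CPM, beside 23.7 CPM in HFD macrophage-gated cells. The interferon-induced chemokine gene Cxcl9 was at 1.20 and 31.0 CPM. Among TGF-beta and BMP ligands, Bmp2 was at 23.3 and 2.63 CPM, Bmp4 at 25.4 and 6.31 CPM and Inhbb at 58.7 and 16.3 CPM, and Tgfb1 was higher at 19.8 and 55.2 CPM with 259 CPM in macrophage-gated cells. None of 9 receptor genes of this family passed 2-fold. The collagen list was balanced, with 3 genes of 28 higher, the same number lower and a median of 0.04. The basement membrane genes Col4a2 (101 and 242 CPM) and Col15a1 were higher and the interstitial genes Col12a1 (34.7 and 16.8 CPM), Col14a1 and Pcolce2 (959 and 411 CPM) lower. Of 15 elastic fibre genes 2 were higher and 3 lower, with Eln, the elastin gene, at 336 and 135 CPM and Mfap2 at 78.4 and 189.9 CPM.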

How the data were processed

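Droplet-based 3' single-cell libraries of the stromal vascular fraction of epididymal fat, 1 per diet, were analysed from the gene by barcode matrices that the authors deposited, whose values are UMI counts without normalization. Cell Ranger, Seurat and the mm10 build are named in the submitters' processing notes, without versions. The matrices hold 27998 genes, of which 27645 matched GENCODE by ID. The NCD library held 33825653 UMIs and the HFD library 18623508, with medians of 4230 and 2020 UMIs per barcode. The stated enzyme step was collagenase at 1 mg/ml for 30 min at 37 °C.

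Counts were summed over Pi16 Dpp4 progenitors, over negatives and over macrophage-gated cells in each library and scaled to CPM, a total of 1000000. Genes at 10 CPM or more in either group were compared, and a ratio of 2 or more was counted as a difference. With 1 library per diet no test was possible. Shares have exact Clopper-Pearson 95% intervals and ratios exact conditional binomial 95% intervals, and both cover counting error only. Where a group had 0 UMIs of a gene, the fold was bounded with a floor of 3 UMIs over the group, and a share of 0 with 3 cells of the group. Free RNA was estimated from 13 macrophage markers relative to the whole library, and the library profile was removed in that proportion as an alternative. Counts simulated at the totals of NCD progenitors and negatives gave intervals that held the true ratio for 95.9% of 7499 genes. Both groups were drawn as independent counts from the NCD progenitor profile, with set ratios for some genes. The draw shares the assumption of the intervals, so it checks the calculation and not the spread among cells or animals.

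Genes were named by the interval end nearest to 1, without the genes of the gate and without mitochondrial, ribosomal, haemoglobin, receptor variable, predicted or sex-linked genes. They had at least 100 CPM and a UMI in 10% of the cells of the higher group, 12 in each direction for each of 2 comparisons. For the difference between progenitors and negatives, 6 in each direction were named, and list members at 50 CPM or more could be named too. The members and lists were chosen with earlier results of these data known. Doublets were kept. Scrublet's own threshold called 183 NCD and 0 HFD barcodes, so the barcodes at or above the 95th percentile of its score (403, ties included) were used for the HFD library, and 6 and 23 of the progenitors were called. Promoter sequences are from RefSeq on GRCm38.p6 and coordinates from GENCODE vM21 on GRCm38. Python 3.11.15, numpy 2.4.6, scipy 1.17.1, pandas 2.3.3, scanpy 1.11.5 and matplotlib 3.10.9 were used.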

Additional observations from a re-analysis of the deposited data

Results flagged for a closer look

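The genes whose ratio of HFD over NCD differed most between progenitors and negatives were ranked, and 6 in each direction were taken. For 10 of them the ratio was above 1 in the progenitors and below 1 in the negatives, or the reverse. Genes outside this ranking, such as Cd55 and Sbsn, also had ratios on opposite sides of 1 and are not listed here. With 1 library per diet these differences were not tested. The value given for each gene is the log2 ratio of HFD over NCD in progenitors less that in negatives.

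Vtn, which encodes vitronectin, had a value of 3.70, with 7.78 and 53.7 CPM in NCD and HFD progenitors and 212 and 112 CPM in negatives. Agt, the angiotensinogen gene, had a value of 3.27. The neuropeptide gene Nmb had a value of 3.23, with 22.1 and 31.6 CPM in progenitors and 512 and 77.6 CPM in negatives. Trf, the iron carrier transferrin, also had a value of 3.23, with 92.5 and 149 CPM in progenitors and 1605 and 276 CPM in negatives, and macrophage-gated cells had 1314 and 897 CPM. Rem1, a small GTPase gene, had a value of 2.87. The 95% counting interval of the ratio in progenitors held 1 for Rem1 (0.714 to 1.94) and for Nmb (0.997 to 2.03). After subtraction of free RNA, the log2 ratio of Trf in progenitors was −0.05 in place of 0.69. Vtn, Agt, Nmb and Trf were lower in progenitors than in negatives in both libraries, with a smaller gap in the HFD library. For Rem1 the ratio of progenitors over negatives in the HFD library had an interval that held 1 (0.486 to 1.24).

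In the other direction, Dact2 had a value of −3.65 and Sfrp2 a value of −2.83. Efhd1 had a value of −2.78, Igfbp5 a value of −2.50 and the microfibril-associated gene Mfap4 a value of −2.29. Mfap4 was at 211 and 126 CPM in progenitors and at 27.1 and 78.9 CPM in negatives. These 5 genes were higher in progenitors in both libraries, again with a smaller gap in the HFD library.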

How the results depend on the processing

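No paired analysis was possible because each diet has 1 library, and for the same reason no replicate could be left out. The list's median, and the named genes of both comparisons in the 8 settings run for them, kept their sign wherever a value was left. Not every gene named between the diets had one in 2 settings. After subtraction of free RNA 18 such genes stayed within their interval and 5 moved. Without cells that had a macrophage marker UMI these counts were 6 and 17. After subtraction of free RNA, the diet ratio of Trf in progenitors went from 0.69 to −0.05 and the median of the cell cycle genes from 0.81 to −0.22. Thinned to 2000 UMIs, with shallower barcodes left out, the progenitors were 24.6% and 30.6% of the remaining stromal cells. In this setting 736 genes in place of 440 were 2-fold lower in HFD progenitors. With the stromal gate at 3% the NCD share was 14.4% (262 of 1814 cells). The HFD share was higher, at 365 of 1425 cells, a wider gap than with the gate at 1.5%. The interstitial list's median at 3% was −0.62 in place of −0.96. At 0.2% and 3 UMIs the shares were 11.8% and 10.7%, with the HFD share no longer the higher, and 160.0 genes in place of 82 were lower than in negatives in both libraries. With no C1q UMI allowed, 920.0 genes were lower in HFD progenitors. After subtraction of free RNA, 136 genes were lower than in negatives in both libraries and the list's median was −0.76. With each cell weighted equally these were 47 and −1.23, and 676 genes were lower in HFD progenitors. At 50 CPM, 61 genes were higher and 29 lower than in negatives, and 156 higher and 118 lower in HFD progenitors. Without a CPM filter these counts were 768, 265, 2443 and 1040.0. Without cells that had a macrophage marker UMI, a setting added after seeing the data, progenitors were 18.8% and 19.6% of stromal cells, 129 genes were lower than in negatives, and 1328 were higher and 964 lower in HFD progenitors. This left 176 NCD and 44 HFD progenitors. The cause of these shifts was not tested. Among named genes, 231 of the values against negatives stayed within their counting interval and 153 moved, as did 126 and 64 of the values between diets.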

Other observations

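Of 24 immediate early and heat shock genes, 19 had a lower level in progenitors than in negatives with chow, 3 of them by 2-fold, and 21 with the high fat diet, 0 by 2-fold. Over all genes 4652 of 8073 were lower with chow and 4002 of 7787 with the high fat diet. By 2-fold these were 6.03% and 2.18% of all genes. The medians were −0.67 and −0.33 on the log2 scale, beside −0.08 and −0.01 over all genes. None of these genes differed by 2-fold between the diets in progenitors, with a median of 0.14 beside −0.16 over all genes. Of 16 interferon response genes 1 was 2-fold higher in HFD progenitors, of 16 hypoxia and glycolysis genes 1 was lower, and of 11 senescence and stress genes 2 were higher. Over all genes 5.88% were 2-fold higher and 5.49% lower, so a count of 1 in 16 is near the share of all genes. Of 15 mesenchymal lineage genes 4 (Ly6a, Cd34, Thy1 and Zfp423) were 2-fold higher in NCD progenitors than in negatives. Another 2 (Pdgfrb and Twist2) were 2-fold lower, and over all genes 5.28% were higher and 6.03% lower. In the HFD library 2 of 14 (Cd34 and Ebf2) were higher and 0 lower, beside 2.84% and 2.18% of all genes. Between the diets 1 of 15 (Tcf21) was 2-fold lower in HFD progenitors, beside 5.49% of all genes. Cd34, a surface sialomucin of progenitor cells, was at 837 and 344 CPM in NCD progenitors and negatives and at 576 and 261 CPM in the HFD library. Il33, which encodes an alarmin cytokine, was at 59.0 and 6.74 CPM and at 81.5 and 53.1 CPM.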
